A study of Drosophila melanogaster with 14 samples.

Results

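The 9 protein-coding genes kl-2, kl-3, kl-5, ORY, CCY, Ppr-Y, PRY, WDY and ARY lie on the Y chromosome of Drosophila melanogaster and are described here by their replication signal. They were taken by name from a list of Y-linked male fertility genes. No measured value entered that choice, but earlier results of these data were known when it was made. Each gene is represented by the windows of the Release 6 assembly (dm6) whose midpoint falls in its annotated gene body. They are 9 of 13968 protein-coding genes of the main chromosomes, and 14 other protein-coding genes lie on Y. Their bodies span 1016.8 kb, or 27.7% of the assembled Y, and hold 1018 of its 3668 windows.

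The Drosophila Y is almost entirely heterochromatic and carries few genes, most of which act only in the male germline. Several of these genes have introns filled with satellite DNA, short sequence units repeated head to tail, and in primary spermatocytes the giant introns of kl-5, kl-3 and ORY are transcribed as visible loops. kl-2, kl-3 and kl-5 encode heavy chains of the dynein motors that drive the sperm tail. ORY and CCY encode coiled-coil proteins, WDY a WD40 repeat protein, PRY a protein related to polycystins and ARY a relative of aldehyde reductases. Heterochromatin in general replicates late in S phase.

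Replication was followed by Repli-seq, in which newly made DNA is labelled, cells are sorted by how far they have gone through S phase, and the labelled DNA is sequenced. Testes carrying tumours were dissected in batches of 100 to 200 pairs, which were pooled, and soaked for 15 minutes in 100 mM BrdU, a thymidine analogue. Fluorescent nuclei were sorted on DNA content into 4 parts of S phase, called E for early, EM for early-mid, ML for late-mid and L for late. GSC-like tumours, named after germline stem cells, came from y[1] w[1118] P{hs70FLP} flies in which P{w[+mC]=GAL4::VP16-nanos.UTR} drove UAS - Upd in the germline. CySC-like tumours, named after the somatic cyst stem cells, came from w[1118] flies in which traffic Jam - GAL4 drove UAS - Upd in the cyst lineage. Flies of both genotypes carried 1 copy of UAS-FRT-H3-GFP-FRT-H3-mKO, the tagged histone used for sorting, and crosses were kept at 25 degrees C. The driver sets which cells carry the tag, so the cell types rest on the promoters, and the assay holds no expression data against which to check them. GSC-like had all 4 fractions in 2 biological replicates, CySC-like had E and L in 2 replicates and EM and ML in replicate 2.

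Libraries held 0.516 M (GSC-like ML replicate 2) to 144 M reads. The 4 libraries of GSC-like replicate 2 were paired-end and shallow, with at most 7.05 M reads, and every other library had at least 49.1 M. The median 10 kb bin in these genes held 20 to 186 reads in GSC-like replicate 2 and 998 to 3586 elsewhere. The shortest gene, ARY, held 2 to 14 reads in each library of GSC-like replicate 2, so its values there carry large counting error. Of the windows in these genes, 3.73% to 9.14% had 0 reads, depending on the library.

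The genes differ in size by 2 orders of magnitude and in what fills their introns. The longest is Ppr-Y (FBgn0046697, Y 1636574 to 1884846, plus strand), with 248.3 kb for 6 exons and an intron of 150.6 kb. It is followed by kl-3 (FBgn0267432, Y 336381 to 563165, plus strand) with 226.8 kb, WDY (FBgn0267449, Y 2273422 to 2487777, plus strand) with 214.4 kb, kl-5 (FBgn0267433, Y 22250 to 137486, minus strand) with 115.2 kb and kl-2 (FBgn0001313, Y 573088 to 664173, plus strand) with 91.1 kb. ORY (FBgn0046323, Y 3561745 to 3618339, plus strand) covers 56.6 kb, PRY (FBgn0267489, Y 146092 to 192020, minus strand) 45.9 kb and CCY (FBgn0267592, Y 3649996 to 3666928, plus strand) 16.9 kb. ARY (FBgn0058064, Y 702430 to 704048, plus strand) is compact, with 1.62 kb, no intron over 0.061 kb and no assembly gap. The other 8 genes all have gaps in introns, where the sequence is unknown over 0.218% (PRY) to 37.8% (CCY) of the gene. Perfect tandem tracts, defined as at least 4 copies of a unit of up to 12 bases over at least 20 bases, made up at most 1.23% of the known sequence of a gene (kl-5). None of them overlapped an exon.

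Tracts of 2 types carry much of what follows, so the start of a few of them is shown. Sequences are from the RefSeq Release 6 assembly (dm6), plus strand of chromosome Y, and the first copy of the unit is in capitals. The tracts of kl-5 and kl-2 belong to the first type, whose units have 5 or 7 bases, and that of WDY to the second, whose units hold A and T only. All 3 lie in introns.
kl-5, chrY:132498-132527, intron 1 of 16: AGAAGAGagaagagagaagagagaagagag
kl-2, chrY:652931-652960, intron 5 of 11: CTTGTcttgtcttgtcttgtcttgtcttgt
WDY, chrY:2484403-2484432, intron 4 of 5: TATAAtataatataatataatataatataa

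These tracts run for 126 bases in kl-5, 320 in kl-2 and 100 in WDY. Introns are numbered from the gene's start over all annotated transcripts. The tract of kl-5 begins 4.86 kb after the start of the gene, and that of kl-2 79.8 kb into the gene, near its end.

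The first comparison asked whether these genes replicated at different times in the 2 kinds of tumour. Timing was given as log2(E/L): the rescaled level of a gene in E was divided by its level in L of the same replicate, after 0.1 RPKM was added to both (RPKM being a read count divided by window length in kb and by the library's M reads). A value below 0 means more signal in L. All 9 genes were below 0 in all 4 replicates, and all 9 had a lower mean in GSC-like than in CySC-like, which is later replication in GSC-like on this scale. The median difference between the cell types was -0.88 over these genes and 0.44 over all 13968 genes.

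Among the dynein heavy chain genes, kl-2 had -1.90 and -1.87 in the GSC-like replicates, against -0.06 and -0.37 in CySC-like, a difference of -1.67 (SE 1.61). kl-5 had -1.91 and -1.996 against -0.28 and -0.13, a difference of -1.75 (SE 0.98). In both genes the GSC-like replicates lay together near -1.9 and far below the CySC-like ones. kl-3 had -0.83 and -1.28 against -0.83 and -0.39, a difference of -0.45 (SE 0.76). Its replicates 1 of both cell types had the same value to 2 decimals, so the groups were only just apart.

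ORY had -1.40 and -2.03 in GSC-like, against -0.33 and -0.10 in CySC-like, and its difference of -1.50 (SE 0.71) was the only one with an unadjusted limma p below 0.05, at 0.045. Ppr-Y had -1.51 and -1.72 against -0.33 and -0.13, a difference of -1.39 (SE 0.79). PRY had -1.27 and -1.53 against -0.80 and -0.24, a difference of -0.88 (SE 0.76). In these 3 genes every GSC-like value lay below every CySC-like value. CCY, with -0.83 and -1.99 against -0.41 and -0.85, and WDY, with -0.74 and -1.03 against -0.83 and -0.27, overlapped between the cell types. ARY had -1.93 and -1.90 against -1.76 and -0.75, and was the latest of the 9 genes in CySC-like replicate 1.

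Both GSC-like replicates lay below both CySC-like replicates in 7 of the 9 genes, against a background of 8% of all genes. No gene passed the limma test across all genes at an adjusted p of 0.05. The adjusted p of these 9 genes ran from 0.627 (ORY) to 0.964 (WDY), and the share of all genes that passed in either direction was 0%. At an unadjusted p of 0.05, 1 of the 9 genes was later in GSC-like, against 0.852% of all genes. With 2 replicates against 2, an exact permutation test of a single value cannot go below 0.33. Within GSC-like, ORY and Ppr-Y were higher in L than in E (limma adjusted p 0.029 and 0.048), against a background of 1.66% of all genes. Within CySC-like none of the 9 genes passed (0 of 13968 genes did), and their adjusted p was at least 0.409. That a gene passed in one cell type and not in the other is no test of a difference, which the fit above gives. The median of all genes moves with the scaling of libraries. With libraries scaled on their median bin, that median was 0.071, and all 9 differences were still below 0, as they were under the 16 alternative settings run. Of these, the settings for filter, variance trend, replicate block and all 14 libraries left each difference unchanged, so its sign could not change there. With every window of a gene weighted equally, 8 of the 9 differences were below 0. That of ORY was then 0.149, with 0.37 in GSC-like replicate 1, and that of kl-2 was -0.09.

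**Figure D1:**
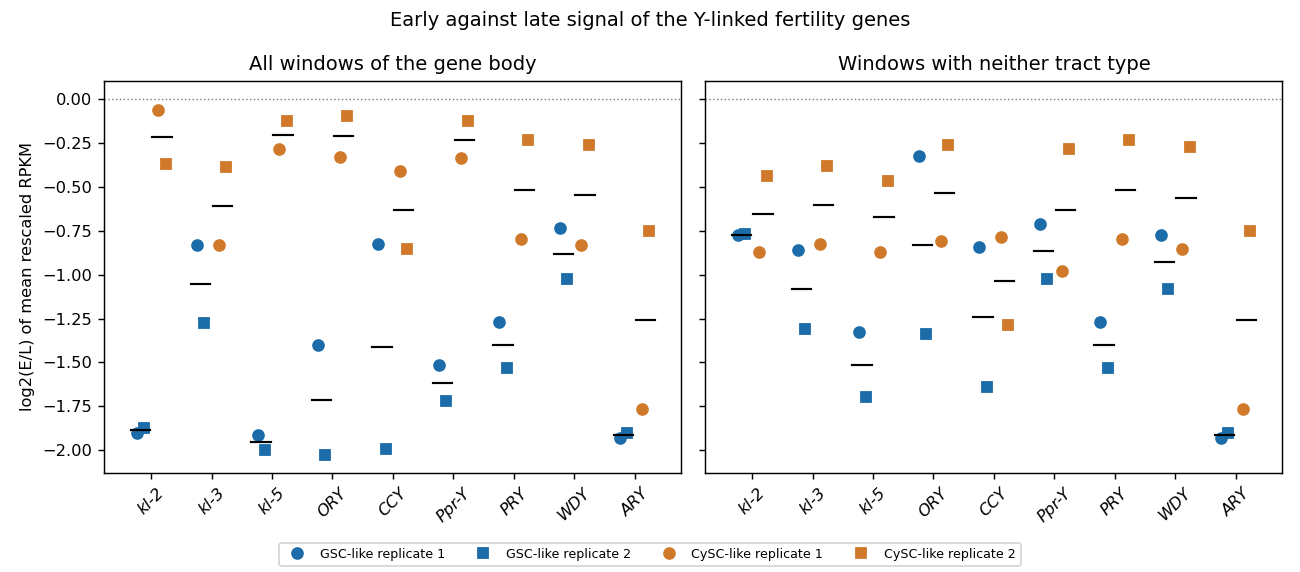
log2(E/L) of the 9 genes in each replicate, from all windows of the gene body (left) and from windows that hold neither kind of tract (right), with circles for replicate 1, squares for replicate 2 and black bars for the mean of the 2 replicates of a cell type. On the left kl-2 and kl-5 sit near -1.9 in GSC-like, and on the right kl-2 sits between -0.87 and -0.44 in all 4 replicates.

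The signal was then followed along the genes in 10 kb bins, 102 of which were assigned to these genes. Their centres lie in the gene, except for ARY, which took the bin it overlaps most. ARY covers 1.62 kb of that bin. Of these, 5 differed between the cell types by limma at an adjusted p of 0.05, all later in GSC-like, against a background of 0.0946% of all bins and 1.17% of the 257 Y bins that touch none of these genes. They lay in kl-5 (2 bins), kl-2, Ppr-Y and ORY, and none was earlier in GSC-like (background 0.00728%). At an unadjusted p of 0.05, 8 were later (background 2.84%). The count depends on the settings: it was 0 without the variance trend, with the median bin or the arm bins of autosomes as the scale, with all 14 libraries in the fit, and with E and L as unpaired libraries. Under each of these settings 0% of all bins passed as well.

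In kl-5, the bin Y 120001 to 130000 had -2.05 in both GSC-like replicates and -0.18 and -0.08 in CySC-like, a difference of -1.92 (SE 0.26, limma adjusted p 9.83e-06). The next bin, Y 130001 to 140000, had -1.91 and -1.82 against -0.30 and -0.03, a difference of -1.70 (SE 0.35, limma adjusted p 0.026). Together these bins cover the start of the gene, which is on the minus strand. The bin of kl-2, Y 650001 to 660000, had -1.98 and -1.96 against -0.02 and -0.37, a difference of -1.77 (SE 0.19, limma adjusted p 6.61e-08). It lies near the end of the gene and includes 5860 bases of its exons.

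The bin of Ppr-Y, Y 1640001 to 1650000, had -2.06 and -1.91 in GSC-like, against -0.11 and -0.03 in CySC-like, a difference of -1.92 (SE 0.24, limma adjusted p 2.65e-06). In that bin 6887 bases are unknown, so its value rests on the smaller part of its sequence. The bin of ORY, Y 3560001 to 3570000, had -1.9998 and -1.91 against -0.06 and -0.29, a difference of -1.78 (SE 0.24, limma adjusted p 9.83e-06). That bin starts before the gene, which begins at Y 3561745. In E of GSC-like replicate 1 its 10 windows had a mean level of 83.9 RPKM. The 56 windows of the gene had 3.07, so most of the bin's signal came from windows outside the gene. In all 5 bins the GSC-like replicates lay close together and far below either CySC-like replicate. In CySC-like the difference of E and L did not pass the limma test (adjusted p at least 0.285).

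The median difference was -0.49 over the 102 bins and 0.24 over all bins. The other 97 bins had a median of -0.47, and the lowest limma adjusted p among them was 0.387. Both GSC-like replicates lay below both CySC-like replicates in 43 of the 102 bins (42.2%), against a background of 15.2% of all bins and 19.8% on the rest of Y. Bins without the 5 called ones gave 38 of 97. kl-5 had 8 such bins of 12, PRY 3 of 4, kl-3 10 of 22, WDY 8 of 22, Ppr-Y 7 of 24, kl-2 3 of 9, ORY 2 of 6, CCY 1 of 2 and ARY its only bin. Within GSC-like, 43 of the 102 bins (42.2%) were higher in L by limma, against a background of 12.4%, and 19.8% on the rest of Y. They were 11 of 12 bins of kl-5 and 12 of 22 of kl-3, and 5 of 24 of Ppr-Y. Within CySC-like 0 of 102 passed, against 10.2% of all bins and 0.778% on the rest of Y. None of the 102 bins was higher in E, in GSC-like (background 17.9%) or in CySC-like (background 0.989%).

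kl-5 was late over most of its length in GSC-like. From Y 70001 to 140000, all 7 bins had both GSC-like replicates below both CySC-like replicates. The bin Y 110001 to 120000 had the lowest single value of all 102, -2.76 in GSC-like replicate 2, beside -1.90 in replicate 1 and -0.74 and -0.37 in CySC-like. Its difference of -1.78 had a limma adjusted p of 0.387. Towards the end of the gene the differences varied, at -0.30 for Y 40001 to 50000 and -0.79 for Y 30001 to 40000. In the last bin, Y 20001 to 30000, the difference was 0.002. kl-3 showed its largest difference in the middle, at -0.998 for Y 480001 to 490000 (limma adjusted p 0.579). In WDY the largest was -1.29 for Y 2470001 to 2480000, in the last 20 kb of the gene (limma adjusted p 0.556).

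Part of ORY went the other way in GSC-like replicate 1. The bin Y 3590001 to 3600000, of which 7881 bases are an assembly gap, had 2.13 in GSC-like replicate 1 but -0.21 in replicate 2, and -0.31 and 0.01 in CySC-like. Its rescaled level was 0.343 RPKM in E and 0.000993 in L of GSC-like replicate 1, and 0.161 and 0.202 in replicate 2. The value of 2.13 rests on the low level in L of replicate 1. The last bin of ORY, Y 3610001 to 3620000, had 1.00 and -0.78 in the GSC-like replicates, which also disagreed in sign.

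**Figure D2:**
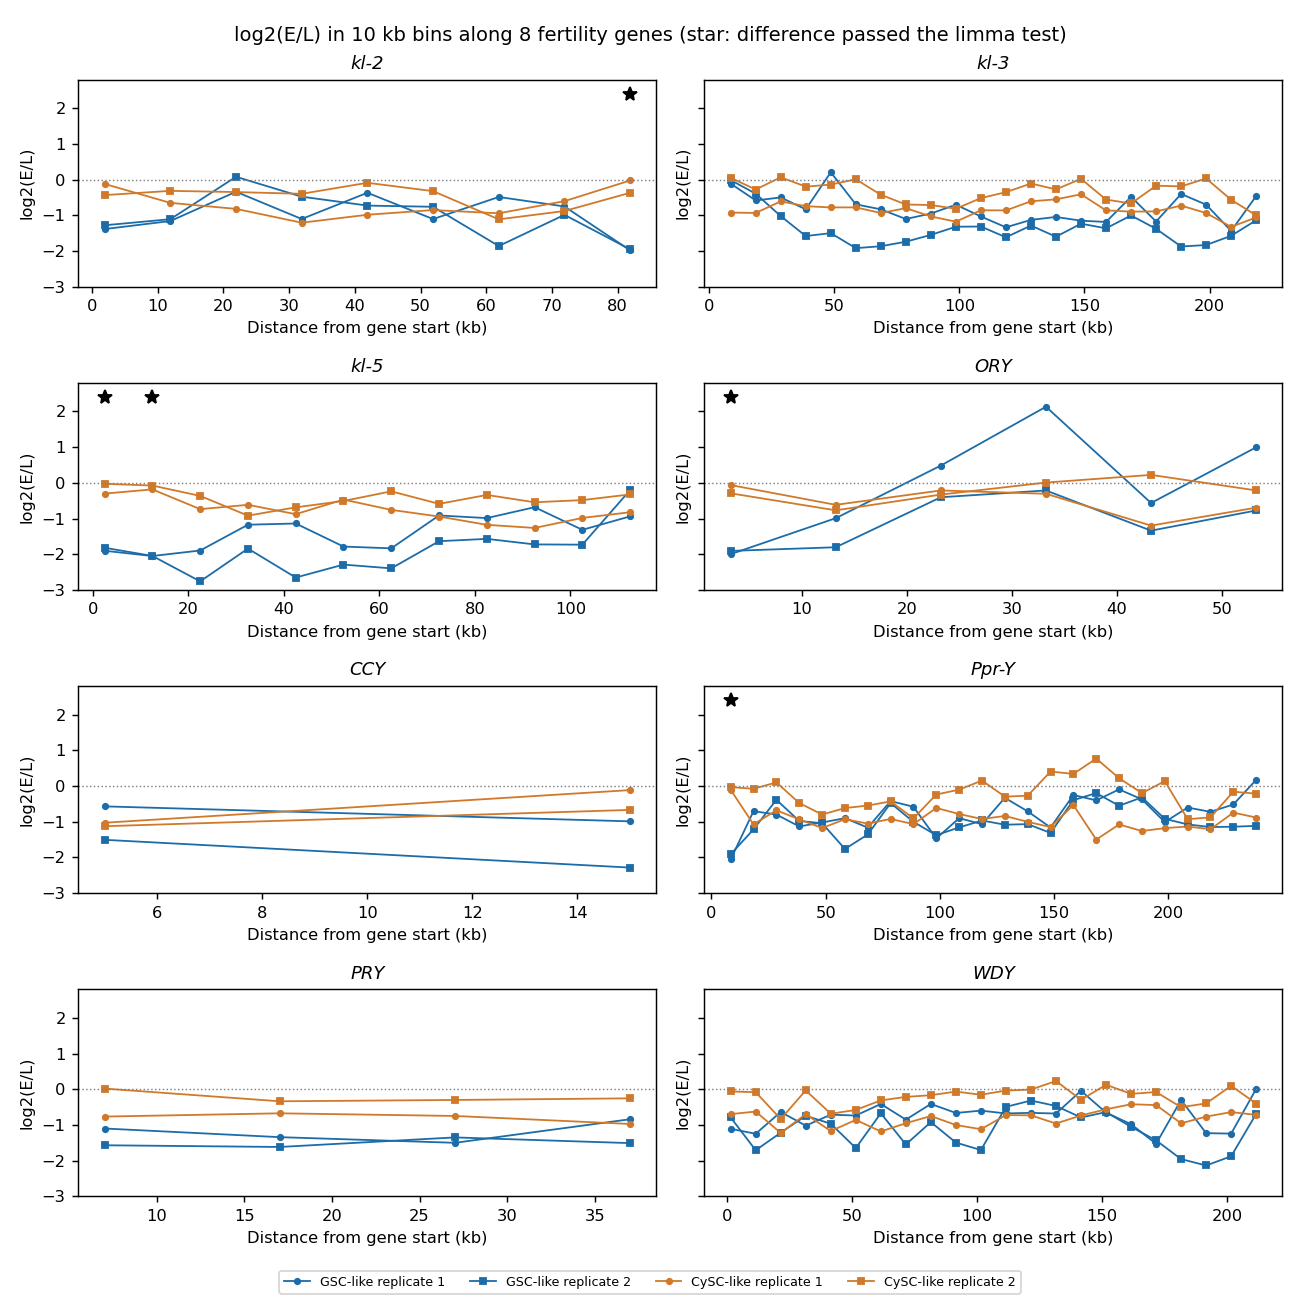
log2(E/L) of 10 kb bins against the distance of the bin's centre from the start of the gene in kb, for the 8 genes with more than 1 bin, with 1 line per replicate and a star over each of the 5 bins whose difference passed the limma test. The stars sit at the start of kl-5, ORY and Ppr-Y and at the end of kl-2, where both GSC-like lines are near -2 and both CySC-like lines near 0.

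The 5 called bins are the ones with the most sequence in tracts of the first type. They hold 473, 168, 320, 435 and 535 bases of it, in the order kl-5 (2 bins), kl-2, Ppr-Y and ORY, and they are all 5 of the 102 bins with at least 100 such bases. The gene ORY itself holds 340 such bases, so part of the tract sequence in its bin lies outside the gene. Of the 6 bins with at least 100 bases of A and T only tracts, in kl-3, kl-5 and WDY, none was called. This division into kinds of tract was made after the values had been seen, and the values that follow are a description without a test.

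Windows of 3 kb were put in the first type when they held at least 50 bases of such tracts. The 20 windows of this type in kl-2, kl-5, ORY, CCY and Ppr-Y had a mean level of 14.4 to 704 times the median autosomal arm bin, depending on the library. They make up 20 of 1018 windows but held 52.6% to 88.4% of the signal of all 9 genes. Their timing on the same scale was -2.02 and -1.97 in the GSC-like replicates, against -0.08 and -0.23 in CySC-like. The 29 windows with A and T only tracts had 0.189 to 3.24 times the level of the median autosomal arm bin. Their timing was -0.15 and -0.57 in GSC-like, against -0.77 and -0.27 in CySC-like. High signal was not found in every window of the first type: the 5 in CCY had 0.274 to 1.45 times the median autosomal arm bin outside GSC-like replicate 2. Windows more than 10 times the autosomal arm median numbered 9 to 15 in 11 libraries, all of the first type. In EM, ML and L of GSC-like replicate 2 they numbered 26, 23 and 114, of which 16, 20 and 20 were of the first type.

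Over the tract of kl-2 shown above, the mean of 4 windows was 420 RPKM in E and 1672 in L of GSC-like replicate 1, and 755 and 2936 in replicate 2. In CySC-like it was 883 in E and 897 in L of replicate 1, and 622 and 802 in replicate 2. There L was far above E in both GSC-like replicates and closer to E in CySC-like. Over the tract of WDY, by contrast, GSC-like had 2.85 in E and 0.975 in L of replicate 1 and 2.10 and 2.74 in replicate 2, so L was not above E in both replicates.

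Similar values were found at tracts of the first type outside these genes. The 13 such windows elsewhere on Y had values of -2.002 and -1.99 in GSC-like, against -0.08 and -0.26 in CySC-like. The 14 in pericentromeric sequence of other chromosomes had -2.05 and -2.16 against -0.21 and -0.02. No window on the arms or chromosome 4 held such a tract. The contrast at the tracts was thus also found outside the fertility genes. The reads of a repeat of this kind match many places, and whether they were kept, spread or dropped is not given in the sources used here.

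**Figure D3:**
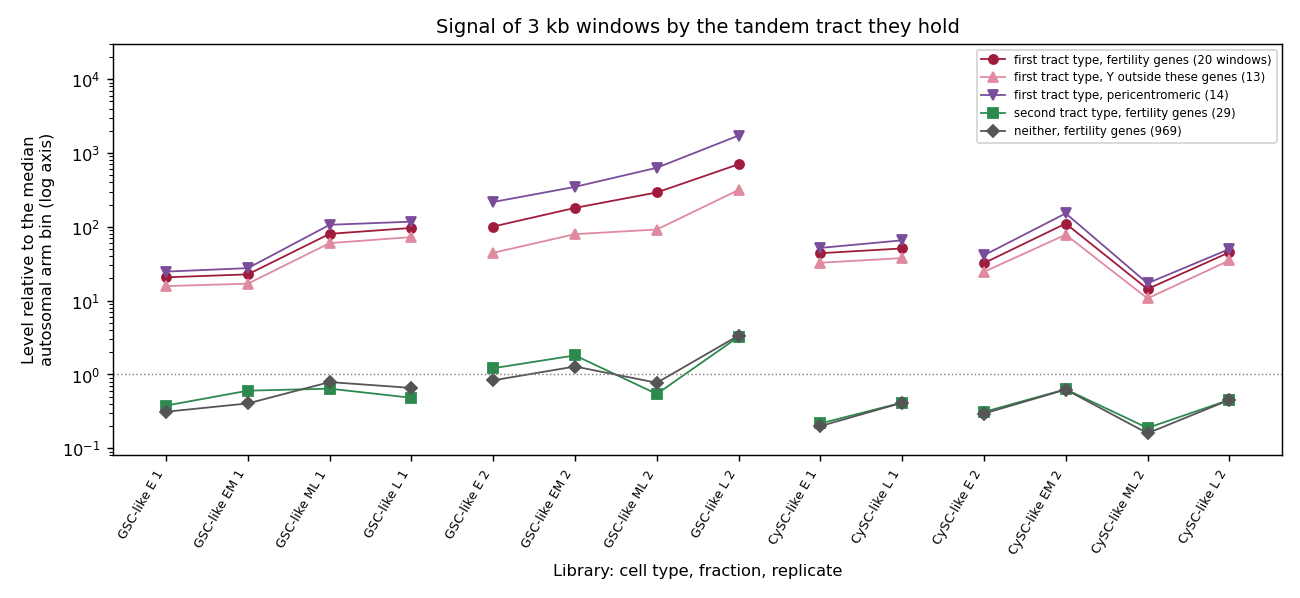
Mean level of 3 kb windows relative to the median autosomal arm bin of the library, on a log axis, for the 14 libraries in the order of cell type, replicate and fraction, by the tract the windows hold (first type, as shown for kl-5 and kl-2, and second type, A and T only) and where they lie. Windows with tracts of the first type lie above 10 in all libraries in all 3 places, and the other windows of the fertility genes lie between 0.160 and 3.37.

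Since 20 windows hold most of the signal, the gene values above are in large part values of tracts in 5 genes. The windows of the first type held 87.6% to 96.8% of the signal of kl-2, 76.1% to 98.2% of that of kl-5, 45.02% to 86.6% of that of ORY, 37.0% to 98.6% of that of CCY and 42.5% to 91.5% of that of Ppr-Y. From the windows with neither kind of tract, kl-2 had -0.78 and -0.77 in GSC-like, against -0.87 and -0.44 in CySC-like, and the cell types overlapped. Ppr-Y had -0.71 and -1.03 against -0.98 and -0.29, and ORY -0.32 and -1.34 against -0.81 and -0.26, with overlap in both. kl-5 kept its separation, with -1.32 and -1.70 against -0.87 and -0.47. PRY and ARY hold no window of either tract kind, and their values stand as given above.

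From the same windows, all 9 genes had a lower mean in GSC-like than in CySC-like, with differences of -0.12 (kl-2) to -0.88 (PRY). The values of kl-3, kl-5, PRY and ARY did not overlap between the cell types. From whole gene bodies, 8% of all genes had both GSC-like replicates below both CySC-like ones. In kl-3 the gap was small, at -0.86 against -0.82 in replicates 1. In ARY it was -1.90 against -1.76, and the -1.90 rests on 9 reads in E and 14 in L of GSC-like replicate 2. An alternative added after the data were seen left out windows with at least 100 bases of any tract or 10% unknown bases. None of the 9 genes then passed limma, at an adjusted p of 0.05 or an unadjusted one. The difference of Ppr-Y then was -0.24, of ORY -0.37, of kl-2 -0.56 and of kl-5 -0.81. Windows of the first type with fewer than 100 tract bases were not dropped for their tract, as with the 55 bases in CCY. Some signal of such tracts thus stayed in.

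Averaged with equal weight over windows of a gene and then over genes, timing was -0.75 and -1.48 in GSC-like, against -0.93 and -0.47 in CySC-like (mean -1.11 ± 0.51 against -0.70 ± 0.32, SD, n = 2 each). The difference of -0.41 was within the spread of replicates (two-sided exact permutation p = 0.67). Set against other Y bins, which largely cancels the scaling of libraries, the bins of these genes differed by -0.32 and -0.54 in GSC-like, and by 0.03 and -0.10 in CySC-like. The difference between the cell types was -0.39, with no overlap and the smallest p the design allows (exact permutation p = 0.33). Set against pericentromeric bins they had -0.32 and -0.56 in GSC-like but 0.19 and 0.37 in CySC-like. The difference was -0.73, with the same exact permutation p of 0.33. Set against X arm bins they had -0.9995 and -2.10 in GSC-like, against -1.26 and -0.61 in CySC-like, which overlapped (difference -0.62, exact permutation p = 0.67). In GSC-like the genes were thus later than both the rest of Y and the pericentromeres in both replicates, and in CySC-like earlier than the pericentromeres in both.

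Signal along the genes was also split into exonic windows, which overlap an exon, and windows wholly in introns. Over the 8 genes that have both, exonic windows had a timing of -0.70 and -1.57 in GSC-like, against -0.85 and -0.43 in CySC-like. Intronic windows had -0.26 and -1.45, and -0.83 and -0.57. Exonic minus intronic was -0.44 and -0.12 in GSC-like, against -0.02 and 0.14 in CySC-like, a difference of -0.34 (exact permutation p = 0.33). It rests on CCY, whose 4 intronic windows had 2.44 in GSC-like replicate 1 and -2.36 in replicate 2, and without CCY it was -0.04. In kl-3, the gene with the most exonic windows, 36 exonic windows had -0.36 and -1.54 and 184 intronic windows -0.60 and -1.51 in GSC-like, so exons and introns differed by less than replicates.

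The signal over all 4 fractions was given as the share of a gene's rescaled signal that fell in each library of a replicate. In GSC-like replicate 1, E held 9.00% to 16.5% of the signal of a gene, EM 12.0% to 22.02%, ML 32.8% to 45.4% and L 24.03% to 43.1%. The highest library was ML for 5 genes and L for 4, the latter being kl-2, kl-5, Ppr-Y and ARY. In GSC-like replicate 2, L was highest for 7 genes and ML for CCY and Ppr-Y. There ML was the lowest library for kl-3, PRY and WDY, at 9.39% to 17.2%, and that library has only 0.516 M reads. E held 8.07% to 18.02% of the signal in that replicate. E was the lowest library for all 9 genes in replicate 1 and for 6 in replicate 2. These shares are from whole gene bodies and so in large part from tracts in 5 genes. From windows with neither kind of tract, replicate 1 had ML above L in kl-2 (4.69 against 4.04 RPKM) and Ppr-Y (4.55 against 3.97). From the same windows, replicate 2 had L above ML in CCY (1.55 against 0.811) and Ppr-Y (9.25 against 4.85). In ORY it had ML above L (6.26 against 2.86).

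In CySC-like replicate 2 the order was different. The library labelled EM held 32.9% (ARY) to 54.7% (kl-5) of the signal and was the highest for 8 genes, while L was the highest for ARY with 35.5%. The library labelled ML was the lowest for all 9 genes, at 8.36% (ORY) to 13.8% (WDY). Of the 102 bins, 98 (96.1%, exact 95% interval 90.3% to 98.9%) were highest in the library labelled EM, against 89.5% on the rest of Y and 7.23% on autosomal arms. On those arms 46.8% of bins were highest in the library labelled ML. In GSC-like replicates 1 and 2, 66.7% and 23.5% of the 102 bins were highest in ML and 29.4% and 66.7% in L. On the rest of Y the shares in ML were 64.2% and 9.73% and in L 17.9% and 49.8%, and on autosomal arms they were 15.0% and 42.3% in ML and 13.8% and 1.98% in L. The EM and ML libraries of CySC-like have no replicate, and their order against E and L is uncertain across the genome, so no time is read from the peak in EM. Intervals here cover counting error over bins only. They treat neighbouring bins as independent, although 3 kb windows cross bin edges.

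**Figure D4:**
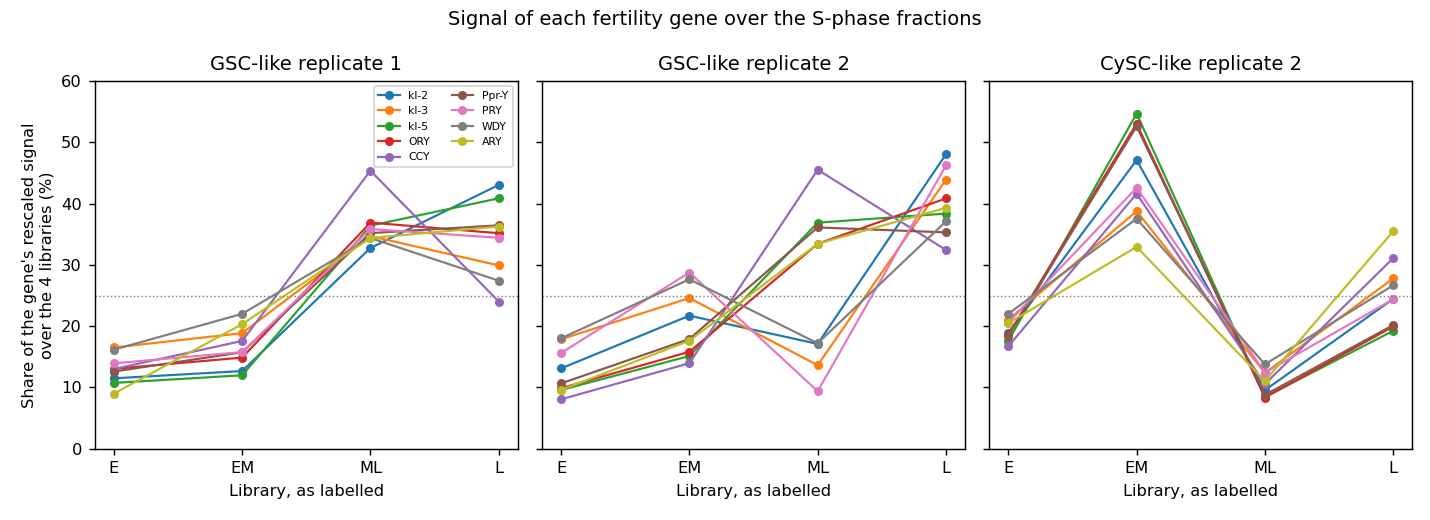
Share in percent of each gene's rescaled signal that fell in the library labelled E, EM, ML or L, for the 3 replicates with all 4 fractions, with 1 line per gene and a dotted line at equal shares. In GSC-like the lines are highest in ML or L. In CySC-like replicate 2 all but that of ARY peak in the library labelled EM, at 54.7% for kl-5 from all its windows.

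The level of a gene is distinct from its timing. Relative to the median autosomal arm bin, kl-2 was highest in 13 of 14 libraries, from 1.95 (CySC-like ML replicate 2) to 52.3 times (GSC-like L replicate 2). kl-5 had 0.645 to 42.1 times and Ppr-Y 0.371 to 21.1 times. All 3 genes hold tracts of the first type, and in windows with neither kind of tract kl-2 had 0.140 to 2.66 times, kl-5 0.132 to 2.13 and Ppr-Y 0.160 to 3.56. kl-3, PRY, WDY and ARY had 0.108 to 4.21 times. The lowest values of kl-3, PRY, WDY and ARY were all in CySC-like ML replicate 2, at 0.108 to 0.199.

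The level of the 9 genes differed mostly by replicate. The mean of log2 over genes, from E and L, was -0.32 in GSC-like replicate 1 and 1.82 in replicate 2, and -0.58 and -0.54 in CySC-like. The difference between the cell types of 1.31 (exact permutation p = 0.33) rests on GSC-like replicate 2, the shallow paired-end one, and was 0.23 without it. By limma across gene bodies, 0 of the 9 genes differed in level (background 0%), with 1 of 9 at an unadjusted p of 0.05 (background 6.98%), and in 5 of 9 both GSC-like replicates lay above both CySC-like ones (background 2.01%). Without GSC-like replicate 1, and so with the paired-end replicate alone, 8 of 9 passed, all but ARY, but so did 65.1% of all genes. Library type, depth and level cannot be told apart in that replicate.

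Other genes gave a frame for these values. Of the 14 other protein-coding genes on Y, none was called by limma in either direction. The gene Pp1-Y1, named after its value was seen, was earlier in GSC-like at an unadjusted p of 0.05 (difference 1.71, limma unadjusted p 0.039). The median difference was -0.27, with 10 of 14 below 0. The 7 axonemal dynein heavy chain genes on other chromosomes, which encode motors of the same family as kl-2, kl-3 and kl-5, had a median difference of 0.71 and none below 0, and none was called, with 1, earlier in GSC-like, at an unadjusted p of 0.05. Their median log2(E/L) was 0.81 in GSC-like, whereas kl-2, kl-3 and kl-5 had means of -1.89, -1.05 and -1.95. Of the genes elsewhere, Dnah3 (-1.42) and Dhc98D (-0.73) were also below 0 in GSC-like, and the others were above 0. From windows with neither kind of tract, the means of kl-2, kl-3 and kl-5 were -0.77, -1.08 and -1.51. The 5 genes for factors that act on the Y loops or their transcripts, blanks, heph, bol, Rb97D and ps, had a median difference of -0.29, and none was called, with 0 at an unadjusted p of 0.05.

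Across the 14 libraries, the log2 level of these genes, relative to the median gene of each library, had a Pearson correlation of 0.56 (ARY and CCY) to 0.996, with a median of 0.91 over the 36 pairs. The 14 libraries come from 4 replicates and share their depth and library type, so these values are a description. The 5 other genes most like the mean of the 9 by this measure were Pzl (3R 2554162 to 3263582, r = 0.994), DIP-lambda (2R 326768 to 705848, r = 0.975), Myo81F (3R 567076 to 2532932, r = 0.974), Mst77Y-13 (Y 3354105 to 3354870, r = 0.973) and CG17684 (2R 1866080 to 2262115, r = 0.969). Of these, 1 lies on Y and the other 4 lie in pericentromeric sequence.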

How the data were processed

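Replication signal was measured in 14 libraries, grouped by the sample titles. The deposited table gives RPKM per window of 3 kb, stepping by 1 kb. The authors name no unit; whole multiples of 1 step, to within 0.02 of a step, in 100% of the 3 kb windows gave each library's reads. Bowtie2 2.4.5 and dm6 are named in the submitters' processing notes. How duplicates and reads with several matches were treated is not given in the sources used here.

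Windows were averaged into 10 kb bins by midpoint, or over gene bodies of Ensembl release 115. Libraries were rescaled to an equal mean over bins, 0.1 RPKM was added, and log2(E/L) was taken within each replicate, which holds the replicate as a block; fold changes of low features are understated on this scale. Features with 0 in at least 4 of 8 E or L libraries were dropped. limma 3.58.1 (R 4.3.3, lmFit and eBayes with trend) was fitted over 13745 bins or 13968 genes, with Benjamini-Hochberg adjustment at 0.05, and tested on simulated data. Nothing but the word replicate says how the samples of a group were kept apart, so p-values measure the spread between these samples. Deviations of E and L with the same number correlated at 0.52 (GSC-like) and -0.06 (CySC-like); the design text pairs them. Single values were compared by exact permutation tests (scipy 1.17.1, Python 3.11.15). Pericentromeric sequence began at 22 Mb on 2L and X and 23 Mb on 3L, and ended at 6 Mb on 2R and 5 Mb on 3R. The dynein list gene CG9492 was found by its locus tag and is named Dhc1 in the annotation.

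All 9 genes were named whatever their values, and bins past the threshold were named. Members and lists were chosen with earlier results of these data known. Alternatives covered bin size, scaling, pseudocount, filter, variance trend, replicate block, all 14 libraries, limma-voom on the recovered reads, repeat windows, and leaving out each replicate or gene. Those for the level of gene bodies were added after the data were seen. So were gene bodies without windows of at least 100 tract bases or 10% unknown bases. Figures used matplotlib 3.10.9. Some tract sequences are not reported here.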

Additional observations from a re-analysis of the deposited data

Results flagged for a closer look

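In 5 bins of 10 kb the contrast of E and L differed between the cell types when that difference was tested with limma. The values are GSC-like minus CySC-like log2(E/L): -1.92 and -1.70 in the bins of kl-5 that start at Y 120001 and 130001, -1.77 in the bin of kl-2 that starts at Y 650001, -1.92 in that of Ppr-Y at Y 1640001 and -1.78 in that of ORY at Y 3560001. The bin of ORY starts before the gene, and most of its signal came from windows outside the gene. In the bin of Ppr-Y 6887 bases are unknown. All 5 bins hold at least 168 bases of tracts of the first type. Their level was 2.01 to 453 times the median autosomal arm bin over the libraries, and on that scale it was higher in GSC-like replicate 2 than in the same fraction of replicate 1, except in ML for kl-2. The part of read placement in these values was not tested.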

How the results depend on the processing

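The count of 5 bins that differed between the cell types was 2 in 50 kb bins, of which 0.254% were called over the genome. It was 0 by limma without the variance trend (10 bins at an unadjusted p of 0.05), with the median bin (10) or the arm bins of autosomes (11) as the scale, with no replicate block (3) and with all 14 libraries in the fit (6). Under each of these settings 0% of all bins were called. Leaving out each replicate gave 4 to 7. The 7 came without GSC-like replicate 1, where 2.34% of all bins were called, against 0.102% in the fit with all replicates, and where a single replicate remained in a cell type it was assumed to vary like the other cell type. No gene body differed in the main fit, limma-voom on recovered reads called 3 (kl-2, kl-5 and Ppr-Y, later in GSC-like) against 0.0501% of all genes, and leaving out replicates gave 0 to 0, while 3.75% and 2.43% of all genes were called without GSC-like replicates 1 and 2. In level, 0 to 8 gene bodies were called when replicates were left out, 8 of them without GSC-like replicate 1, where 65.1% of all genes were called. Of bins higher in L in GSC-like, 43 became 68 with scaling on autosomal arm bins, 26 with values as deposited and 0 with no replicate block; in CySC-like 0 became 1 with scaling on autosomal arm bins and 2 with no filter. Mean timing of the genes differed by -0.78 to -0.05 when replicates were left out, their difference from the rest of Y by -0.50 to -0.28, their level by 0.23 to 2.38 and exonic minus intronic windows by -0.50 to -0.18, or -0.044 without CCY. The mean share of bins highest in ML or L in GSC-like was 93.1%, and 99.0% with the median bin or 98.0% with arm bins as scale. In CySC-like replicate 2 the share in the library labelled EM was 96.1%, and 99.0% with arm scaling or 89.8% in 5 kb bins. No timing difference of a gene body changed sign under 16 alternatives, nor did these 4 summaries under 19. For gene bodies, the settings for filter, variance trend, replicate block and all 14 libraries could not change the sign. With every window of a gene weighted equally, which is not among the 16, the difference of ORY was 0.149. The causes of the changes were not tested. Depth limits GSC-like replicate 2 most, where ARY had at most 14 reads in a library.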
